A study of Mus musculus with 24 samples.

Results

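*Neu1* encodes the lysosomal sialidase, and it is described here together with *Ctsa*, *Glb1*, *Hexa*, *Psap* and *Gm2a*, whose products work beside it on glycolipids inside the lysosome. *Neu1* was chosen by its measured difference between the genotypes of these same mice, and the other 5 genes were chosen by their function next to it. All 6 listed genes were found among the 13998 genes of the deposited table, and all 6 passed the minimum mean of 5 normalized counts. The genotype values of these genes are therefore given as a description, and where a member is said to be called, no conclusion is drawn from the call.

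The libraries came from the hypothalamus of 24 individual male F_2_ mice, with 12 *cast/cast* and 12 *b6/b6* mice across a CAST/EiJ donor segment of Chr 17, and were read by SAGE-Seq, a method that counts a short tag near the 3′ end of each transcript. All 24 mice were *b6/b6* elsewhere in the genome and descended from a single B6.CAST-17.1 male crossed to C57BL/6J females, so that every CAST allele traced to the same founder. Mice entered testing at 10 to 16 weeks of age, chose for 10 d between a carbohydrate/protein (C/P) and a fat/protein diet, went back to chow, and were killed after about 48 h on the 2 diets again and a 4 h fast. They were taken from the 25% tails of C/P intake, which ran from 77.8 to 106.6 kcal in *cast/cast* and from 27.4 to 41.0 kcal in *b6/b6* mice over the 10 d, so genotype and intake cannot be told apart between the groups. Each mouse gave 1 library, with 7754202 to 13082873 tag hits, and the spread between mice holds biological and technical variation alike.

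Gangliosides are glycolipids that carry sialic acid and are plentiful in the membranes of neurons. They are broken down in the lysosome sugar by sugar, by hydrolases that need small activator proteins to reach a lipid held in a membrane. NEU1 takes off sialic acid and is kept stable in a complex with protective protein/cathepsin A, the product of *Ctsa*, and β-galactosidase, the product of *Glb1*. *Hexa* encodes the α subunit of β-hexosaminidase A, *Gm2a* the activator which presents a ganglioside to that enzyme, and *Psap* the precursor of the saposins. Loss of these genes gives lysosomal storage diseases of the nervous system, among them sialidosis and Tay-Sachs disease in humans.

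Some libraries stood apart from the rest of their genotype in the genes outside Chr 17. The first principal component of 7601 such genes held 40.4% of their variance. The scores of *cast/cast* mice 4, 5, 6 and 8 on it ran from 37.94 to 70.54, and those of the other 8 *cast/cast* mice from -26.22 to -14.07. These 4 mice also had the 4 highest totals of normalized counts in their genotype, 10993612 to 11731740 against at most 10632363 in the other 8. On the second component, with 20.3% of the variance, *b6/b6* mice 6 and 12 scored -56.67 and -72.26, and the other 10 *b6/b6* mice lay between -11.81 and 12.34. Mice 6 and 12 had the 2 lowest totals, 8287368 and 8433415. *b6/b6* mouse 1 scored 43.51 on the first component, within the range of the 4 *cast/cast* mice. The fold changes of the 6 genes and the counts of called genes were also computed without *b6/b6* mice 6 and 12, and separately without *cast/cast* mice 4, 5, 6 and 8. No fold change was fitted with both sets left out. The correlations, which were taken within a genotype, were also computed without all of these libraries. *b6/b6* mouse 1 was kept throughout.

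Markers of the hypothalamus were abundant. All 14 were present, led by *Pmch*, the gene of melanin-concentrating hormone, at a mean of 8130 normalized counts. Their summed level ran from 12002 to 30529 in *b6/b6* mice and from 6141 to 35466 in *cast/cast* mice. *Gh*, the growth hormone gene of the pituitary, averaged 42.5 normalized counts and was at 0 in some mice, and *Prl*, *Tshb* and *Lhb* were not in the table. Choroid plexus markers summed to a median of 181 in *b6/b6* mice and 163 in *cast/cast* mice. The pituitary markers summed to medians of 35.9 and 30.4, with a highest value of 469.8 in *b6/b6* mouse 12, so both neighbouring tissues were low in most mice. Neuronal markers, led by *Snap25*, summed to a median of 49691 in *b6/b6* mice and 54521 in *cast/cast* mice, oligodendrocyte markers, led by *Mbp*, to 24355 and 29860, astrocyte markers, led by *Slc1a2*, to 23423 and 23275, and microglial markers, led by *Cx3cr1*, to 3077 and 3123. Endothelial and mural markers summed to 1226 and 1346, and ependymal markers, with the largest shift of these cell types, to 660.2 and 1037. The ranges of the 2 genotypes overlapped for each of these sums. None of the 61 markers tested was called between genotypes by limma, beside 1.49% of all genes, and 3 had an unadjusted *P* below 0.05 (*Tmem119*, *Aif1* and *Ccdc153*), beside 8.13% of all genes. Of these markers edgeR called 1 (*Mag*), with 390 of all 13998 genes called, and DESeq2 0, with 397; the 4 genes were named after their values were seen.

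*Neu1*, on Chr 17 at 34931253 to 34937297 (GRCm38, plus strand), was the only 1 of the 6 genes inside the CAST segment. In *b6/b6* mice it had a lowest value of 226.9, a median of 308.0 and a highest of 425.4 normalized counts, and in *cast/cast* mice 68.8, 157.2 and 214.2. Every *cast/cast* mouse was below every *b6/b6* mouse, so the groups did not overlap. The mean of *cast/cast* mice, 151.3 ± 45.9 (SD, n = 12), was 51.2% lower than the 310.1 ± 52.0 (SD, n = 12) of *b6/b6* mice, and the log2 fold change was -1.08 ± 0.16 (SE) on the log2(normalized count + 1) scale. Whole-tissue values cannot tell fewer cells of a type from less RNA per cell. Whether CAST sequence alters the cutting or matching of tags from *Neu1* and other genes of the segment was not tested.

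Genes were called in this contrast when their means differed at least 1.5-fold with an unadjusted limma *P* no higher than 0.01. Of the 6 genes 1, *Neu1*, was called, and 208 of 13998 genes were called in all (1.49%), 1.01% lower and 0.471% higher in *cast/cast* mice. Groups without overlap were found in 1 of the 6 genes and in 0.336% of all genes. Within the CAST segment 104 of 420 genes were called (24.8%), and outside it 92 of 13002 (0.708%). As *Neu1* was chosen by this contrast, nothing is read from these counts.

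The 4 lowest *Neu1* values of the series, 68.8 to 128.3, were those of *cast/cast* mice 4, 5, 6 and 8, whose libraries stood apart. Without them the 8 remaining *cast/cast* mice ran from 141.6 to 214.2 with a mean of 177.6 ± 26.4 (SD, n = 8), still all below the lowest *b6/b6* mouse, and the log2 fold change was -0.80. The coefficient of variation of *Neu1* fell from 30.3% in all *cast/cast* mice to 14.9% in these 8, against 16.8% in *b6/b6* mice. Study numbers differed between the genotypes, with a median of 269.5 in *b6/b6* mice and 120.5 in *cast/cast* mice. Colony numbers, which the labels give without saying what they track, were also unevenly spread. In the 24000s the means were 326.4 in 4 *b6/b6* mice and 98.6 in 2 *cast/cast* mice, in the 25000s 323.7 in 3 and 161.9 in 9, and in the 26000s 288.8 in 5 against 161.9 in a lone *cast/cast* mouse. *Neu1* was lower in *cast/cast* mice in each block, but both *cast/cast* libraries of the 24000s (mice 4 and 6) and *b6/b6* mice 6 and 12, also of that block, were among those apart.

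**Figure D1:**
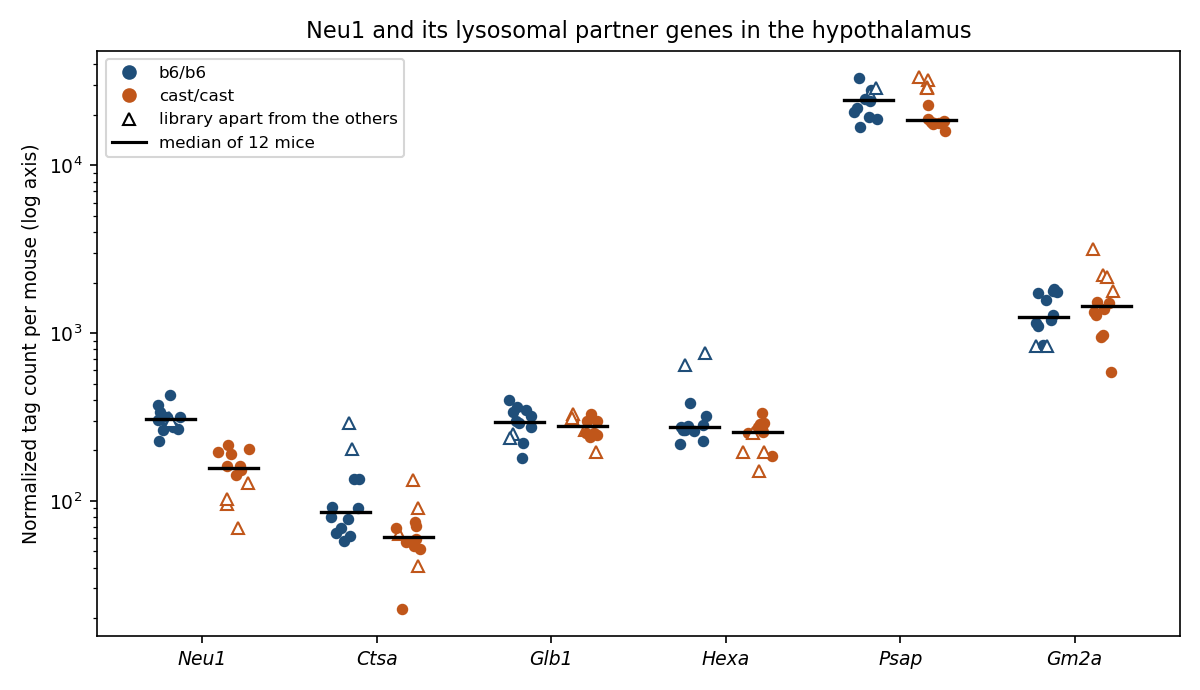
Normalized tag counts (log axis) of the 6 genes, 1 point per mouse, with the median of each genotype as a black bar. Open triangles mark the 6 libraries that stood apart: *b6/b6* mice 6 and 12 and *cast/cast* mice 4, 5, 6 and 8. *Neu1* is the only gene of the 6 whose genotypes do not overlap.

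*Ctsa*, whose product protects NEU1 in their complex, was the least abundant gene of the set. It lies on Chr 2 at 164832872 to 164841032. Its lowest, median and highest values were 57.2, 85.5 and 290.4 normalized counts in *b6/b6* mice and 22.6, 61.2 and 132.9 in *cast/cast* mice. The groups overlapped, although 10 of 12 *cast/cast* mice were below the *b6/b6* median. *b6/b6* mice 6 and 12 were the highest of all, at 204.6 and 290.4, and the other 10 *b6/b6* mice did not exceed 135.3. The log2 fold change was -0.70 ± 0.26 (SE) in all mice, -0.44 without mice 6 and 12, and -0.28 with the first 2 principal components as covariates. It was larger, and *Ctsa* was called, with rescaled totals, edgeR and DESeq2 (each -0.79) and without the 4 *cast/cast* libraries apart (-0.85).

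*Glb1*, the β-galactosidase gene on Chr 9, differed little between genotypes. It ran from 179.4 through a median of 295.9 to 398.1 normalized counts in *b6/b6* mice and from 195.7 through 280.8 to 328.7 in *cast/cast* mice. The log2 fold change was -0.07 ± 0.13 (SE), with a 95% interval from -0.33 to 0.20. So of the 3 genes of the sialidase complex, *Neu1* differed without overlap, *Ctsa* was lower on average with overlap, and the *Glb1* values of the genotypes overlapped widely.

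*Hexa*, also on Chr 9, had values of 218.5, 276.7 and 760.2 (lowest, median and highest) in *b6/b6* mice and 151.1, 256.0 and 331.7 in *cast/cast* mice. Its 2 highest values, 646.6 and 760.2, were again those of *b6/b6* mice 6 and 12, and the next mouse was at 384.8. Mice 6 and 12 also had the 2 lowest microglial sums of the series, 2293 and 2261 against at least 2550.1 in the other mice, and mouse 6 the lowest neuronal and mouse 12 the lowest ependymal sum, 41185 and 188. Without these mice the mean of *b6/b6* mice went from 348.4 to 277.4, against 245.3 in all *cast/cast* mice. In the 8 *cast/cast* mice left without mice 4, 5, 6 and 8 the mean was 268.5, close to that 277.4. With all *cast/cast* mice kept, the log2 fold change went from -0.42 ± 0.19 (SE) to -0.19.

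*Psap*, the prosaposin gene on Chr 10, was by far the most abundant of the 6 and ranked 33rd of 13998 genes by mean. It ran from 16902 through 24551 to 33270 normalized counts in *b6/b6* mice and from 16085 through 18555 to 33501 in *cast/cast* mice. The *cast/cast* values fell into separate clusters, with mice 4, 5, 6 and 8 between 28869 and 33501 and the other 8 between 16085 and 22812. The same 4 mice had higher sums of neuronal markers, 59632 to 69713 against 43252 to 55346, and lower sums of endothelial and mural markers, 547 to 1159.6 against 1215 to 2087. Microglial sums were 4653, 5994 and 4268 in mice 5, 6 and 8, against at most 3685 in the other 8. Mouse 4, at 2824, lay within the range of those 8. Ependymal sums ran from 261 to 710.0 in the 4 mice, and from 489 to 1865 with a median of 1426 in the other 8. Oligodendrocyte sums were 15576.5, 19433 and 17575 in mice 4, 5 and 8, below the 24460 to 37849.5 of the other 8. Mouse 6 was at 29439, and its choroid plexus sum, 574, was the highest of the series. Mice 4, 5 and 6 had the 3 lowest sums of hypothalamus markers in the series, 8801, 9382 and 6141. The other 21 mice were at 12002 or more, mouse 8 among them at 19185. So the *Psap*, *Gm2a* and *Neu1* values of the 4 mice came with a different balance of markers, which was not the same in each of them. *Gm2a*, the activator gene on Chr 11, repeated this split, since the same 4 mice lay between 1772 and 3176 and the other 8 between 588.1 and 1537, with a median of 1449.5 over the 12. In *b6/b6* mice *Gm2a* ran from 837.3 to 1819 with a median of 1247, and mice 6 and 12 had the 2 lowest values, 837.3 and 839.6. The log2 fold changes were small in all mice, -0.11 ± 0.15 (SE) for *Psap* and 0.18 ± 0.22 (SE) for *Gm2a*. Without the 4 *cast/cast* mice they were -0.36 and -0.15, so the sign of the *Gm2a* value changed with them. *b6/b6* mouse 1, at 43.51 on the first component, had 28004.5 for *Psap* and 1765 for *Gm2a*. Its *Neu1* value, 371.0, was above the *b6/b6* median of 308.0.

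SAGE-Seq takes 1 tag per transcript, so the counts of these genes were set beside each other without dividing by length. In *b6/b6* mice the order of the medians was *Psap*, *Gm2a*, *Neu1*, *Glb1*, *Hexa* and *Ctsa*. *Psap* exceeded *Gm2a* 19.7-fold, and both exceeded the other 4 genes in 12 of 12 mice. *Neu1*, *Glb1* and *Hexa* did not differ beyond their spread, as *Neu1* was above *Glb1* in 8 of 12 mice and *Glb1* above *Hexa* in 8 of 12. In *cast/cast* mice *Neu1* came after *Hexa*, which was higher in 11 of 12 mice, while *Glb1* and *Hexa* were again even, with *Glb1* higher in 6 of 12.

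**Figure D2:**
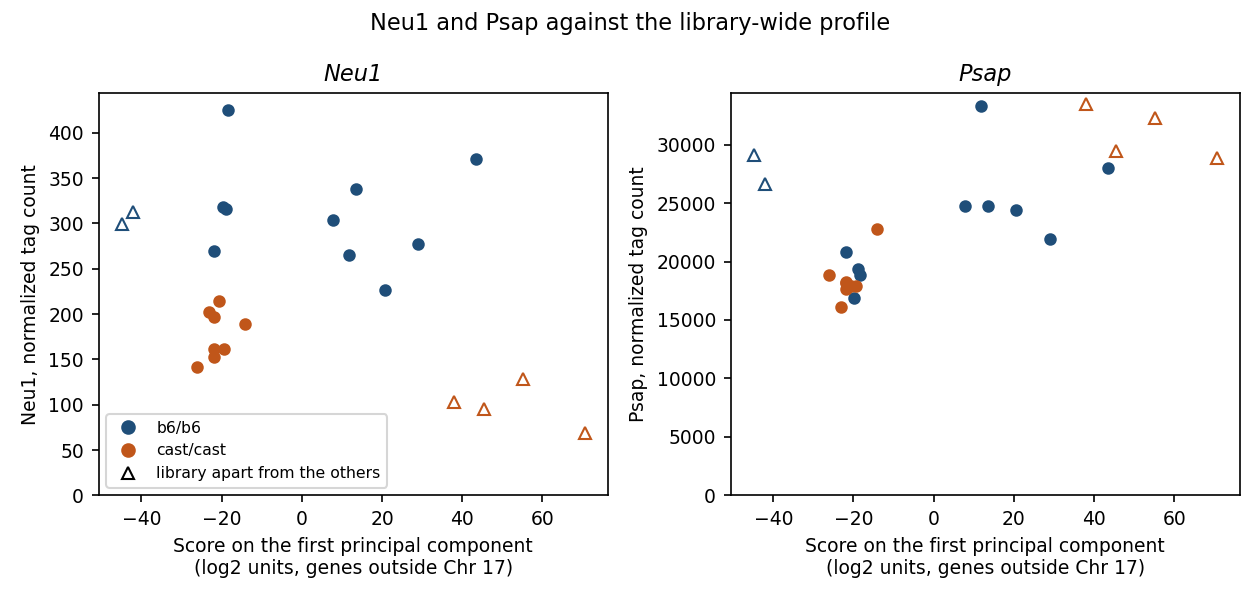
*Neu1* (left) and *Psap* (right) in normalized tag counts against each library's score on the first principal component of the genes outside Chr 17, 1 point per mouse. The 4 *cast/cast* libraries with scores from 37.94 to 70.54 (open triangles at the right of each panel) had the 4 lowest *Neu1* values and 4 *Psap* values from 28869 to 33501. *b6/b6* mouse 1, at a score of 43.51, had 371.0 for *Neu1* and 28004.5 for *Psap*.

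Within a genotype the contrast that chose *Neu1* plays no part, so it was asked whether the 6 genes rose and fell together among mice of the same genotype. Pearson's r and Spearman's rho on log2 values were computed for 15 pairs in each genotype, 30 correlations in all, with 2-sided permutation tests. With all mice, 6 of the 30 passed a Benjamini-Hochberg adjusted *P* of 0.05, 1 in *b6/b6* mice and 5 in *cast/cast* mice. How often pairs of other genes would pass was not computed, so no pair is read as particular to the 6 genes. As the *cast/cast* libraries fell into 2 clusters, those 5 are not given as pooled values. Within the 8 *cast/cast* mice of the larger cluster, none of the 15 pairs passed, and *Neu1* against *Psap* gave r = -0.127 (exact permutation *P* = 0.793; rho = -0.548, *P* = 0.171). There *Hexa* and *Psap* gave r = -0.939 (exact permutation *P* = 0.0101, adjusted 0.121; rho = -0.619, *P* = 0.115), and r was 0.105 without mice 1 and 10.

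In *b6/b6* mice the pair that passed was *Ctsa* and *Hexa*, the genes of cathepsin A and of the hexosaminidase α subunit. Over 12 mice r was 0.925 (permutation *P* = 9e-05, adjusted 0.0027) and rho was 0.916 (*P* = 9e-05, adjusted 0.0027). Leaving out mice 12 and 6, the farthest from the median of *Ctsa*, gave r = 0.725 over 10 mice (permutation *P* = 0.0161, adjusted 0.121; rho = 0.855, adjusted 0.0298). In those 10 mice it passed the adjusted threshold by rank only. Centred within colony-number blocks over the 12 mice, r was 0.958 (permutation *P* = 1e-05, the smallest possible, adjusted 0.0003) and rho was 0.937 (adjusted 0.0018). In this and the later block-centred tests the values were shuffled across blocks and not within them, so the *P* values can be too small. With rescaled totals r was 0.938 (permutation *P* = 0.00017, adjusted 0.0051) and rho 0.769 (adjusted 0.0558). In that setting *Ctsa* and *Psap* also passed by r, at 0.706 (permutation *P* = 0.00972, adjusted 0.0417), but not by rho (0.720, adjusted 0.0558). Without mice 12 and 6 the r of *Ctsa* and *Psap* there was 0.289.

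*Psap* and *Gm2a*, both genes of activator proteins, were related in the 10 *b6/b6* mice left without mice 6 and 12, which were set aside once the values had been looked at. There r was 0.856 (permutation *P* = 0.00168, adjusted 0.0504) and rho was 0.939 (*P* = 0.00027, adjusted 0.0081), whereas over all 12 *b6/b6* mice r was 0.358 (permutation *P* = 0.25; rho = 0.336, *P* = 0.286) and, centred within colony-number blocks, 0.422 (permutation *P* = 0.17; rho = 0.392, *P* = 0.209). Within the 8 *cast/cast* mice r was 0.683 (exact permutation *P* = 0.0951; rho = 0.714, *P* = 0.0576). *Ctsa* and *Glb1*, of the sialidase complex, gave r = 0.757 in the 10 *b6/b6* mice (permutation *P* = 0.0125, adjusted 0.121; rho = 0.891, adjusted 0.0178), but r = 0.098 over the 12 (permutation *P* = 0.765; rho = 0.343, *P* = 0.276) and 0.388 centred within blocks (permutation *P* = 0.214; rho = 0.343, *P* = 0.278). The *b6/b6* means of *Gm2a* and *Glb1* rose with the block, from 919 and 235 in the 24000s to 1342 and 283 in the 25000s and 1646 and 346 in the 26000s. For *Neu1* and each of the other 5 genes in *b6/b6* mice, r ran from -0.270 with *Gm2a* to -0.018 with *Hexa*, and no permutation *P* of these 5 was below 0.397. With libraries rescaled to the same total, *Neu1* and *Gm2a* gave r = -0.634 (permutation *P* = 0.0267, adjusted 0.089; rho = -0.601, *P* = 0.0413), and centred within colony-number blocks r = 0.002 (permutation *P* = 0.995; rho = -0.014, *P* = 0.974).

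C/P intake was set against the 6 genes within each genotype, 12 correlations in all. The share of all genes that would pass was not computed, so no relation is read as particular to the 6 genes. In *b6/b6* mice *Hexa* and *Ctsa* were higher in mice that ate less of the C/P diet by kcal, but with intake as a share of total kcal neither passed (*Hexa* r = -0.599, permutation *P* = 0.0399, rho = -0.671; *Ctsa* r = -0.611, permutation *P* = 0.0357, rho = -0.629; adjusted 0.186 each). For *Hexa* r was -0.784 over 12 mice (permutation *P* = 0.00109, adjusted 0.0131) and rho was -0.689 (*P* = 0.0158, adjusted 0.189). For *Ctsa* r was -0.755 (permutation *P* = 0.00412, adjusted 0.0247) and rho was -0.618 (*P* = 0.0357, adjusted 0.214). Leaving out mice 12 and 5, the farthest from the median intake, brought r to -0.600 and -0.549. Mouse 12, with the highest *Hexa* and *Ctsa*, had the lowest intake, 27.4 kcal, and its library was among those apart. Without mice 6 and 12, r was -0.694 for *Hexa* (permutation *P* = 0.0194, adjusted 0.233; rho = -0.603, *P* = 0.0715) and -0.496 for *Ctsa* (permutation *P* = 0.151; rho = -0.499, *P* = 0.145). Centred within colony-number blocks, r was -0.713 for *Hexa* and -0.735 for *Ctsa*, each with an adjusted permutation *P* of 0.056. That *P* can be too small, as the shuffling ran across blocks.

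For *Neu1* and intake r was -0.272 over the 12 *b6/b6* mice (permutation *P* = 0.387; rho = -0.315, *P* = 0.315), -0.448 without mice 6 and 12 (permutation *P* = 0.198; rho = -0.474, *P* = 0.167), close to the value of *Ctsa* there, and, in the 8 *cast/cast* mice of the larger cluster, r = -0.109 (exact permutation *P* = 0.761; rho = -0.405, *P* = 0.327). None of the 6 *cast/cast* correlations passed in all mice or in these 8.

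The rest of the pathway was taken from 6 lists chosen by function, with 79 of 80 genes in the table. None of the 79 was called by limma, beside 1.49% of all genes, and 4 had an unadjusted *P* below 0.05, as did 8.13% of all genes. On tag hits edgeR called 1 of the 79 (390 of all 13998 genes) and DESeq2 called 2 (397 of all), and each was lower in *cast/cast* mice. The median log2 fold change was -0.09 over the 79 genes and -0.02 over all genes tested, with 54 of 79 below 0 beside 7378 of all 13998 (52.7%). With libraries rescaled to the same total the medians were -0.18 and -0.11, with 2 principal components as covariates 0.01 and -0.01, and without *b6/b6* mice 6 and 12 -0.02 and -0.01. They were -0.10 and -0.01 with edgeR, -0.10 and -0.00 with DESeq2, -0.12 and -0.02 with study number as a covariate, and -0.06 and -0.02 without the 4 *cast/cast* libraries, so the gap between lists and all genes depended on the setting.

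Among the other lysosomal sphingolipid hydrolases and activators, 0 of 7 genes were called and the median log2 fold change was -0.16. *Arsa*, which takes sulfate off sulfatide of myelin, averaged 340.8 in *b6/b6* mice and 387.3 in *cast/cast* mice, with a log2 fold change of 0.15 that was 0.49 without the 4 *cast/cast* libraries apart. In the list of sialidases and sialic acid handling, 0 of 11 were called, with a median of -0.10. The other sialidase genes were far lower than *Neu1*, as *Neu4* averaged 77.0 in *b6/b6* mice and 57.9 in *cast/cast* mice, *Neu3* 11.6 and 9.88, and *Neu2* 8.97 and 8.25 (named after their values were seen). *Cmas*, which activates sialic acid for its transfer to glycans, was the most abundant at 4668 and 3918, and ranged from 204 to 6804 within *cast/cast* mice. *Slc17a5*, the exporter of free sialic acid from the lysosome, averaged 540.9 and 506.3.

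For ganglioside synthesis 0 of 13 genes were called and the median was -0.06. *Ugcg*, which adds glucose to ceramide in the first step of the pathway, averaged 2288 ± 418 (SD, n = 12) in *b6/b6* mice and 1866 ± 375 (SD, n = 12) in *cast/cast* mice. It was below the *b6/b6* median in 11 of 12 *cast/cast* mice, with a log2 fold change of -0.30 ± 0.13 (SE) and a limma *P* of 0.0332 (adjusted 0.6), so it did not pass. Without *b6/b6* mice 6 and 12 its log2 fold change was -0.41 (limma *P* = 0.00136, adjusted 0.195). With 2 principal components as covariates it was -0.42 (limma *P* = 0.000833, adjusted 0.0988). Without the 4 *cast/cast* libraries apart it was -0.22 (limma *P* = 0.141), and *Ugcg* was called in none of these settings. *B4galt6*, which makes lactosylceramide, averaged 2364 and 2190. The other glycan hydrolases had 0 of 15 called and a median of -0.04. Their most abundant genes were *Ids*, the iduronate sulfatase, with 12758 and 12958, and *Gaa*, the acid α-glucosidase, with 3754 and 3481.

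Of the lysosomal proteases and lipases 0 of 13 were called, with a median of -0.16. *Ctsd*, the cathepsin D that also cuts prosaposin, averaged 15633 and 15628 and ranged from 2465 to 39136 in *cast/cast* mice. Its log2 fold change was -0.23 ± 0.34 (SE) in all mice and -0.84 without the 4 *cast/cast* libraries apart, where it was called. *Ctsb* averaged 4677 and 4132. Of the membrane, sorting and regulator genes 0 of 20 were called, with a median of -0.13, and the most abundant were *Atp6ap1*, an accessory subunit of the proton pump, at 3774 and 3769, and *Lamp1* at 3295 and 2922. The log2 fold change of *Lamp1* was -0.28 in all mice and 0.47 without the 4 *cast/cast* libraries.

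*Gne*, *Ugcg*, *Ctsc* and *Gnptab* were the 4 genes with a limma *P* below 0.05, and all but *Ugcg* were named after their values were seen. *Gnptab*, which builds the mannose 6-phosphate tag of lysosomal enzymes, was the gene called by both edgeR and DESeq2. It averaged 506.3 in *b6/b6* mice, against 288.6 in the other genotype, and its log2 fold change was -0.52 ± 0.24 (SE), but its highest *b6/b6* value was 1559 against a median of 325.5, and without *b6/b6* mice 6 and 12 the log2 fold change was -0.17.

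**Figure D3:**
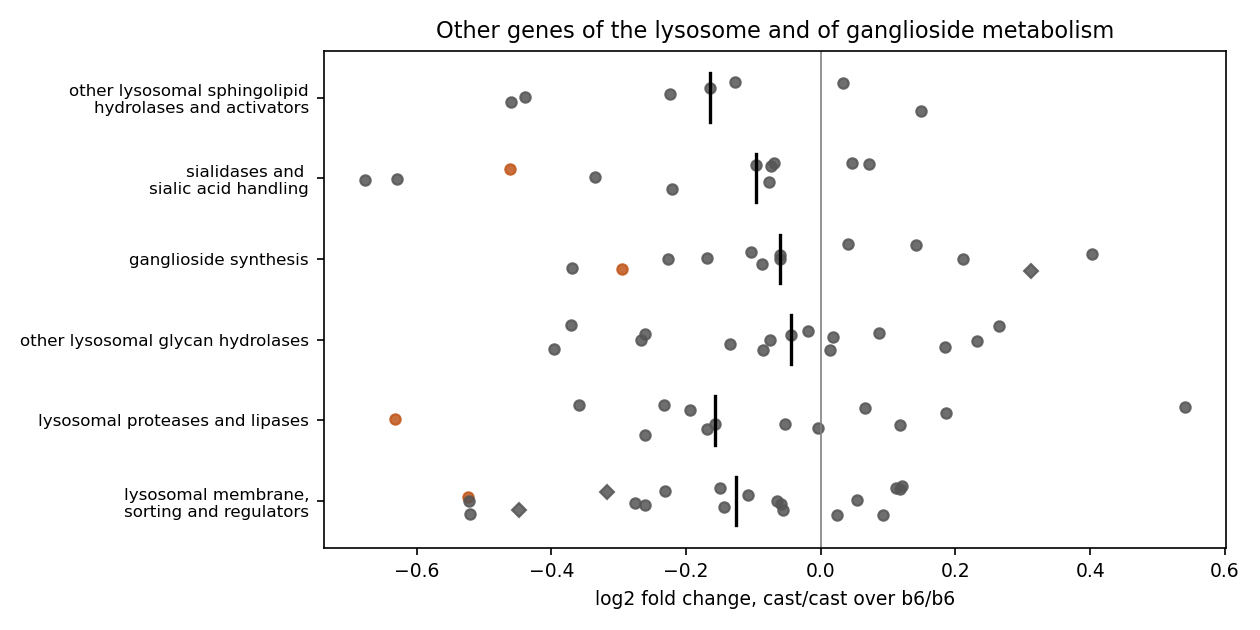
Log2 fold change, *cast/cast* over *b6/b6*, of 79 genes in 6 lists of the lysosome and of ganglioside metabolism, 1 point per gene, with the median of each list as a black bar. Orange points are the 4 genes with an unadjusted *P* below 0.05, diamonds the 3 genes inside the CAST segment, and none of the 79 was called.

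The neighbourhood of *Neu1* belongs to the major histocompatibility complex of Chr 17 and holds genes with no role in the lysosome. Of the 5 tested genes on either side, from 34837019 to 35016329, 2 of 10 were called, both lower in *cast/cast* mice, beside 24.8% of genes in the CAST segment. *1110038B12Rik*, a RIKEN cDNA 12.9 kb distal to *Neu1*, had values of 130.1, 166.9 and 246.3 (lowest, median and highest) in *b6/b6* mice and 0, 4.21 and 11.4 in *cast/cast* mice. The groups did not overlap, and the log2 fold change was -5.05 ± 0.31 (SE; limma *P* = 1.71e-15, adjusted 2e-12). *Zbtb12*, a zinc finger gene 34.4 kb proximal, averaged 67.0 ± 24.4 (SD, n = 12) and 40.8 ± 21.5 (SD, n = 12), a log2 fold change of -0.81 ± 0.28 (SE; limma *P* = 0.00721, adjusted 0.451), and was lower than the *b6/b6* median in 10 of 12 *cast/cast* mice. Its call was lost under 6 of 13 other settings, where the log2 fold change still ran from -0.82 to -0.72.

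Closer to *Neu1* on its proximal side, *Ehmt2*, a histone methyltransferase gene 17.2 kb away, averaged 225.3 and 165.0, with a log2 fold change of -0.48 ± 0.24 (SE) and a *P* of 0.0509. *C2*, a complement gene, averaged 98.5 and 124.8, *Skiv2l* 58.5 and 61.8, and *Dom3z* 27.2 and 23.3. On the distal side the heat shock genes *Hspa1b* and *Hspa1a* averaged 62.4 and 79.9, and 94.4 and 100.4, followed by *Lsm2* with 287.7 and 312.9 and *Vars* with 284.1 and 241.0. Of the 8 neighbours that were not called, 3 had a lower level in *cast/cast* mice.

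**Figure D4:**
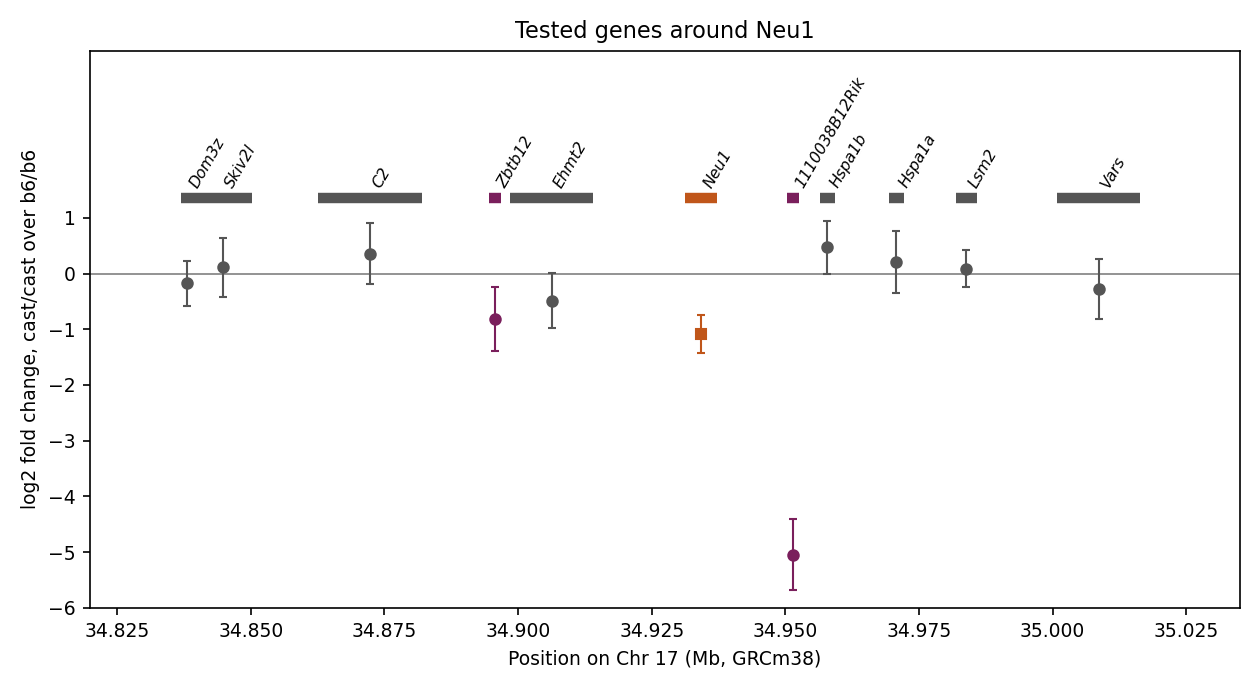
Log2 fold change, *cast/cast* over *b6/b6*, of *Neu1* (orange square) and of 5 tested genes on either side against position on Chr 17 in Mb (GRCm38), with 95% intervals from limma as error bars and gene extents as blocks above. Called neighbours are purple, and *1110038B12Rik* at -5.05 lies far below the others.

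The genes outside the CAST segment most like *Neu1* were ranked by Pearson's r over the mice, after each genotype's mean was subtracted, among 11232 genes with a mean of at least 20. The top 5 were *Ccdc107*, *Phpt1*, *2010204K13Rik*, *Magee2* and *Ndufaf3*, on Chr 4, 2, X, X and 9. This ranking used all 24 mice, the libraries apart included. As those libraries form clusters, no r over all mice is given. Over the 18 other mice r was 0.606, 0.681, 0.419, 0.564 and 0.538, so the order of the 5 differed there. *Ndufaf3*, an assembly factor of mitochondrial complex I, for example had a highest value of 1177 and a lowest of 163 normalized counts in *cast/cast* mice. None of the 5 was called between genotypes in all mice, and 4 of them were without the 4 *cast/cast* libraries apart, where 819 of 13998 genes were called. The 4 called genes, all but *Magee2*, were higher in *cast/cast* mice there, with log2 fold changes from 0.64 to 0.98, whereas *Neu1* was lower (-0.80). As the 5 were picked for following *Neu1*, which was lowest in those 4 libraries, nothing is read from these calls.

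A SAGE library keeps the tag that starts at the CATG site nearest the 3′ end of a transcript, the site cut by the anchoring enzyme of the kit. The table gives hits per gene and not per tag. The 27-base tags predicted for such a library are shown to place the part of each gene that would be counted, and they were read from GENCODE M21 transcripts linked to the same RefSeq records as in the table (GRCm38, plus strand), with the cut site in capitals. That of *Psap* lies at chr10:60302460-60302486 in the last exon, that of *Gm2a* at chr11:55112835-55112861 in exon 4, that of *Glb1* at chr9:114474091-114474117 in exon 16, all in the 3′ UTR. That of *Hexa* is in the coding sequence and spans the junction of exons 11 and 12, from 59563047 to 59563246 of Chr 9.
Psap: CATGaactgaggggtctctgtgtagag
Gm2a: CATGcataccgggagagaatacagaca
Glb1: CATGgctgaacctctgagactgagcct
Hexa: CATGgtacgcctgaacagaaggctctg
Ctsa: CATGtccaccatccaccgccgtccccc
No transcript of another gene held any of these tags at a CATG site, with up to 2 mismatches. The *Ctsa* tag, at chr2:164840246-164840272 in the 3′ UTR of the longer of its 2 transcripts (that of the shorter, which ends at another site, is not printed), lies inside *Pltp*, a gene of the opposite strand that overlaps *Ctsa* by 1515 bases. *Pltp* averaged 185.9 and 128.6 normalized counts, and whether the tag counting used strand is not given in the sources used here. For *Neu1* no tag is printed, because the table ends the gene 1376 bases beyond the end of the GENCODE transcript, and that stretch was not analysed here. All tags are those of the C57BL/6J reference, and CAST sequence was not analysed here.

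Lysosomal genes are known targets of TFEB, a transcription factor that binds E-box motifs. The letters CACGTG, a palindrome that reads the same on both strands, were searched in the 250 bases before each start in RefSeq promoters (GRCm38.p6). They were found in 1978 of 32851 promoters (6.02%) and in 2 of the 8 promoters of the 6 genes, 1 of *Ctsa* and that of *Glb1*, shown here with the motif in capitals because they are the matches among the 6 genes. The stretch shown for *Ctsa* is chr2:164833749-164833778, and its motif begins 12 bases before the second start of the gene. The stretch shown for *Glb1* is chr9:114401018-114401047, and its motif begins 48 bases before the start. Both are on the plus strand.
Ctsa: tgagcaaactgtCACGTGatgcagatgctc
Glb1: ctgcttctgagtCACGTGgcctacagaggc
The windows of *Neu1*, *Hexa*, *Psap* and *Gm2a* did not hold these letters.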

How the data were processed

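Hypothalamus SAGE-Seq libraries of 24 F_2_ mice, 12 per genotype, were used. The deposited signal values are normalized counts, which the authors made from tag hits per gene (RefSeq mRNA, GRCm38) with the size factors of DESeq. The table also holds the authors' own DESeq comparisons (mean counts, the ratio or fold change, its log2 form as deposited by the authors, and the p-value and adjusted p-value as deposited by the authors), which were not used. Its 19529 rows held 13998 genes, and repeated rows of a gene were identical. In every library 100% of values were whole multiples of 1 step (within 0.01), which gave tag hits. No 2 of the 276 pairs of libraries were near copies (lowest chi-square per degree of freedom 14.6).

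The members and lists were chosen with earlier results of these data known. The test was that of limma 3.58.1 (trend), for genes averaging 5 or more, on log2(normalized count + 1), Benjamini-Hochberg over all genes. Correlations used permutation tests with 100000 resamples, or all orders below 10 mice. Block-centred values were shuffled across blocks. Named genes were the 6 members, in each list the called genes and up to 2 of the most abundant, 5 tested neighbours on either side, and the 5 genes most like *Neu1*. Positions came from the table or RefSeq, and the CAST segment was taken from 3.19 to 45.73 Mb. Alternatives were pseudocounts of 0.5 and 5, minimum means, rescaled totals, edgeR 4.0.16 and DESeq2 1.42.0 on tag hits, study number, colony-number blocks, the 25000s alone, and adjusted *P*. Another 4, chosen after seeing the data, used principal components or left out libraries apart. R 4.3.3 and Python 3.11.15 were used, and the tests were tried on simulated data.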

Additional observations from a re-analysis of the deposited data

How the results depend on the processing

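*Neu1* stayed lower in *cast/cast* mice under all 13 other settings of its fold change, from -1.22 with colony-number blocks to -0.80 without the 4 *cast/cast* libraries apart. It was chosen by this contrast, and the minimum-mean settings cannot change a gene's own fold change, so nothing is read from this count. *Ctsa*, *Glb1* and *Hexa* also kept their sign, from -0.85 to -0.28, -0.16 to -0.00 and -0.51 to -0.04, and *Ctsa* was called under 4 of the 13 (edgeR, DESeq2, rescaled totals, and without the 4 *cast/cast* libraries), whereas *Psap* ran from -0.36 to 0.05 and *Gm2a* from -0.15 to 0.38. The count of called genes, 208, was 390 with edgeR, 397 with DESeq2, 84 in the 25000s alone (9 against 3 mice, so fewer samples), and 80 at an adjusted *P* of 0.05 with no minimum ratio. Chosen after seeing the data, leaving out 2 *b6/b6* libraries gave 138 and leaving out 4 *cast/cast* libraries gave 819, of which 363 were lower, and the cause was not tested. With rescaled totals 187 of 230 were lower (81.3%), against 142 of 208 (68.3%). Of the 79 pathway genes 0 were called, but 1 with edgeR, 2 with DESeq2, 3 with study number as a covariate (312 of all genes) and 2 without the 4 *cast/cast* libraries. Of the 30 correlations between members 6 passed by r (5 by rho), and 7 did with rescaled totals (1 by rho). In values centred within colony-number blocks 1 passed, with *P* values that can be too small, and without the 6 libraries apart 0 by r (3 by rho). Of the 12 with intake 2 passed, with 0 centred within blocks, 0 by share of total kcal and 0 without the 6 libraries; fewer mice entered where libraries were left out. *Zbtb12* lost its call under 6 of 13 settings. No minimum mean gave the same genes, as the lowest mean was 6.03. At this depth the lowest member value was 21 tag hits (*Ctsa*), so counting error was largest there.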
